A study of Mus musculus with 9 samples.

Results

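Glycolysis and the transcriptional response to low oxygen were followed through 34 genes in mouse colonic mucosa, 20 of glycolysis and 14 of the hypoxia response. The genes were chosen by name, matched to array probes through their RefSeq transcripts, and each represented by its brightest probe. All 34 were on the array and among the 21083 genes and transcripts tested, and none was lost to the filter on dim probes. The arrays were Agilent 1-colour arrays of 9 samples of total RNA, 3 per group, from ICR mice, an outbred stock, and the mucosa was labelled normal. Every mouse, the DMH group included, had received weekly injections of the colon carcinogen 1,2-dimethylhydrazine (DMH) under the skin, 20 mg/kg per dose, over 20 weeks. The hCA-Tumor group ate a diet with 3% calcium and carried tumors, the hCA-Notumor group ate the same diet and carried none, and the DMH group ate a diet with 1.24% calcium. The labels call the DMH group a control and leave its tumor status unstated. It is also unstated whether each array represents its own mouse. The p-values therefore reflect array-to-array spread alone, which may be technical, and with 3 arrays a group precision is limited.

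Glycolysis splits glucose into pyruvate, which either enters mitochondria or is reduced to lactate and exported. In cells with enough oxygen, prolyl hydroxylases of the Egln family modify the alpha subunits of the hypoxia-inducible factor (HIF), which are then degraded. When oxygen is short the alpha subunits persist, pair with Arnt and bind short DNA elements whose core can read ACGTG, near genes for glycolysis, lactate export, blood vessel growth and mitophagy. Control of HIF therefore lies largely at the protein, which arrays do not measure. The colonic surface borders a lumen with little oxygen, and HIF is known to be active in its epithelium.

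Values are log2 processed signals minus the array's 75th percentile, here called scaled log2 signals, and differences are between group means on that scale. Signals of different probes cannot be ranked against each other. Epithelial markers (10 of 10 measured, Epcam and Cdh1 among them) had mean scaled log2 signals of 5.70 to 5.73 in hCA-Tumor arrays, 5.86 to 5.95 in hCA-Notumor arrays and 5.79 to 5.87 in DMH arrays. Between the high calcium groups 1 of the 10 was higher with tumors (Cdh1, 0.88) and 3 were lower (Cdx1, -1.35, Cdx2, -0.82, and Krt19, -0.25). The arrays lay on 3 slides, with the 3 hCA-Notumor arrays and DMH replicate 1 on slide 1, hCA-Tumor replicates 1 and 2 and DMH replicates 2 and 3 on slide 2, and hCA-Tumor replicate 3 alone on slide 3. The first principal component held 50.3% of the variance, and slide accounted for 92.1% of it and group for 64.8%. The second held 21.0%, and slide accounted for 45.3% of it and group for 93.2%. Slide and group overlap, so these shares do not add up. The high calcium groups never shared a slide, so a fit with the slide as a block compares them only through DMH arrays. In that fit, hCA-Notumor minus DMH rests on slide 1 alone, where DMH replicate 1 is the only DMH array. The difference hCA-Tumor minus DMH rests on slide 2 alone, and hCA-Tumor replicate 3 adds nothing to any comparison. Differences from DMH with the slide as a block therefore equal those within slides, although both are counted among the alternatives. In these bulk samples, fewer cells of a type and less RNA per cell cannot be told apart.

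Among the 14 hypoxia response members, transcripts were mostly higher in hCA-Tumor than in hCA-Notumor mucosa, while the glycolysis members split. Over all members 19 of 34 (55.9%) passed at an adjusted p under 0.05 in limma's moderated test, where 47.6% of all features did. Of the 14 hypoxia members 8 rose, 2 fell and 4 did not pass, with a median difference of 0.36, against 0.00 for all features. With the slide as a block 7 rose and none fell, and the median was 0.52. Over all features that fit had 3288 of 21083 higher and 3029 lower, with a median of 0.05. Of the 20 glycolysis members 4 rose, 5 fell and 11 did not pass, with a median of 0.02. The members higher by at least 0.5 were the lactate exporter Slc16a3, the glycolytic activator Pfkfb3, and Ankrd37, Ddit4, Kdm3a, P4ha2, Egln3 and Bnip3, all known as HIF targets. Those lower by at least 0.5 were Hif1a itself, hexokinase Hk1 and enolase Eno1. The share of members higher was 35.3% against 27% of all features, and the share lower was 20.6%, against 20.6% of all features. Without hCA-Tumor replicate 3, alone on its slide, 7 members were still lower, while 6536 features over the whole array were, against 4337 with it. At a difference of at least 0.5 the share called was 32.4% of members against 23.4% of all features, the share higher 23.5% of members against 13.2% of all features and the share lower 8.82% against 10.1%. With the slide as a block 11 of the 19 calls were kept, and 11 were kept in the authors' deposited value table, which scales the arrays by other constants. Calls kept under all 18 alternatives were Slc16a3, Ddit4, Kdm3a, P4ha2, Pfkfb3 and Bnip3 (higher) and Hk1 and Eno1 (lower). For Hk1, the fits without hCA-Tumor replicate 2 or 3 rest on 1 array of that group.

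**Figure D1:**
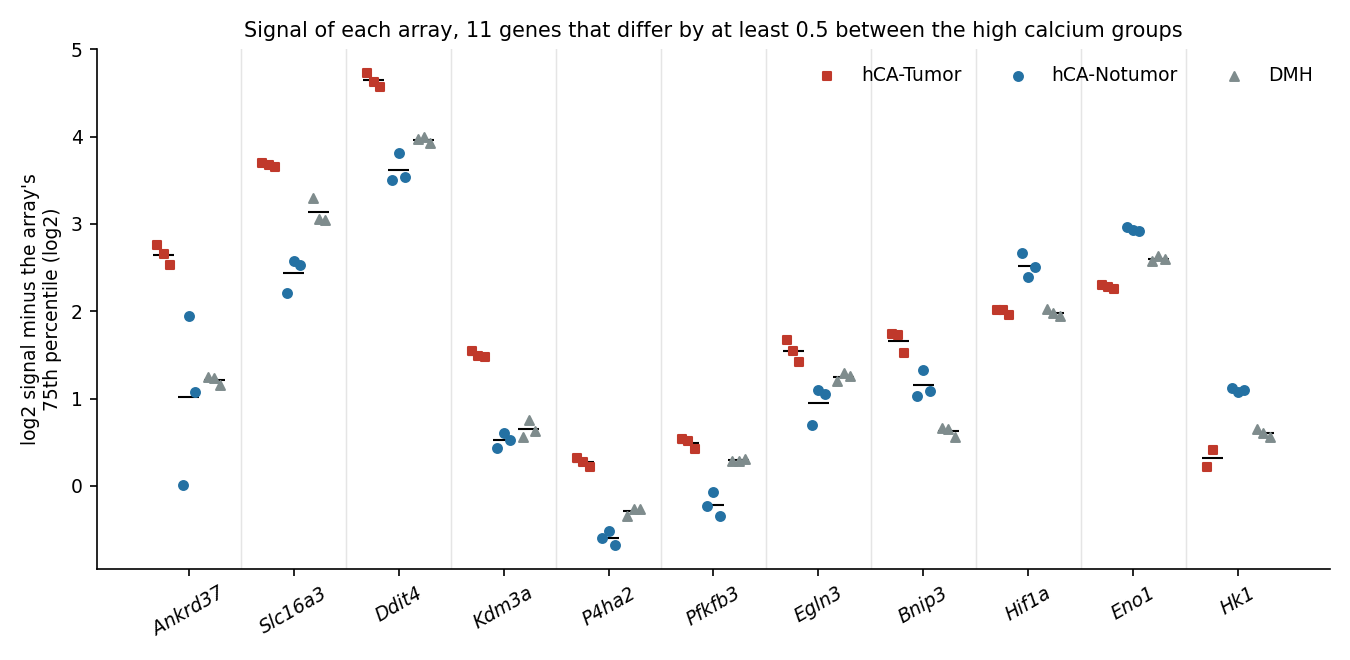
Scaled log2 signal (log2 signal minus the array's 75th percentile, vertical axis) of the 11 genes called with a difference of at least 0.5 between the high calcium groups, 1 point per array and a bar for the group mean, with hCA-Tumor (red squares), hCA-Notumor (blue circles) and DMH (grey triangles). The hCA-Tumor arrays sit above every hCA-Notumor array for 8 genes and below them for Hif1a, Eno1 and Hk1, and Ankrd37 shows the widest spread, in hCA-Notumor arrays.

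Against DMH mucosa, hCA-Tumor mucosa had 20 of 34 members called (58.8%), 17 higher and 3 lower, where 37% of all features were called, 21% higher and 15.9% lower. Hypoxia members accounted for 9 of the rises and none of the falls, with a median difference of 0.44 against 0.08 for all features. Differences of at least 0.5 were reached by 9 members, all higher (26.5%, against 9.83% of all features, with 5.42% lower), namely Ankrd37, Bnip3, Eno2, Kdm3a, Ddit4, Adm, P4ha2, Slc16a3 and P4ha1. The slide block kept 19 of the 20 calls and lost Ankrd37. In the deposited value table only 4 calls were kept, Ankrd37, Bnip3, Eno2 and Kdm3a.

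In hCA-Notumor mucosa 22 of 34 members were called against DMH (64.7%), 17 higher and 5 lower, where 35.7% of all features were called, 18.4% higher and 17.3% lower. Glycolysis members made up 11 of the rises and 3 of the falls, and hypoxia members 6 and 2, with medians of 0.19 and -0.01 against 0.07 for all features. Most differences were small, and only Aldoc, Eno2, Hif1a and Bnip3 (higher) and Slc16a3, Hk2 and Pfkfb3 (lower) reached 0.5, which is 20.6% of members against 16.2% of all features. By direction these were 4 members higher (11.8%, against 8.83% of all features) and 3 lower (8.82%, against 7.38%). The slide block kept 12 of the 22 calls, and the deposited value table kept 5 (Aldoc, Ddit4, Hk2, Pfkfb3 and Slc16a3). That table shifts the median of all features by -0.22 here and by -0.13 for hCA-Tumor against DMH. Over all features, 29.3% of its calls for hCA-Notumor against DMH were higher, against 51.5% of the calls from the scanner signals, and for hCA-Tumor against DMH 39.5%, against 56.9%. Relative to all features, the members' median stood at 0.12 in the table and 0.10 in the scanner signals for hCA-Notumor against DMH, and at 0.20 and 0.19 for hCA-Tumor against DMH. Both comparisons share the DMH arrays. When the high calcium groups were averaged and set against DMH, 15 members were called (44.1%, against 31.6% of all features), 14 higher and Hk2 lower. At a difference of at least 0.5 there were 3 members, all higher (8.82%, against 6.58% of all features, with 4.42% lower). Of the calls over all features in that comparison 30.3% were higher in the deposited value table and 56.5% in the scanner signals.

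**Figure D2:**
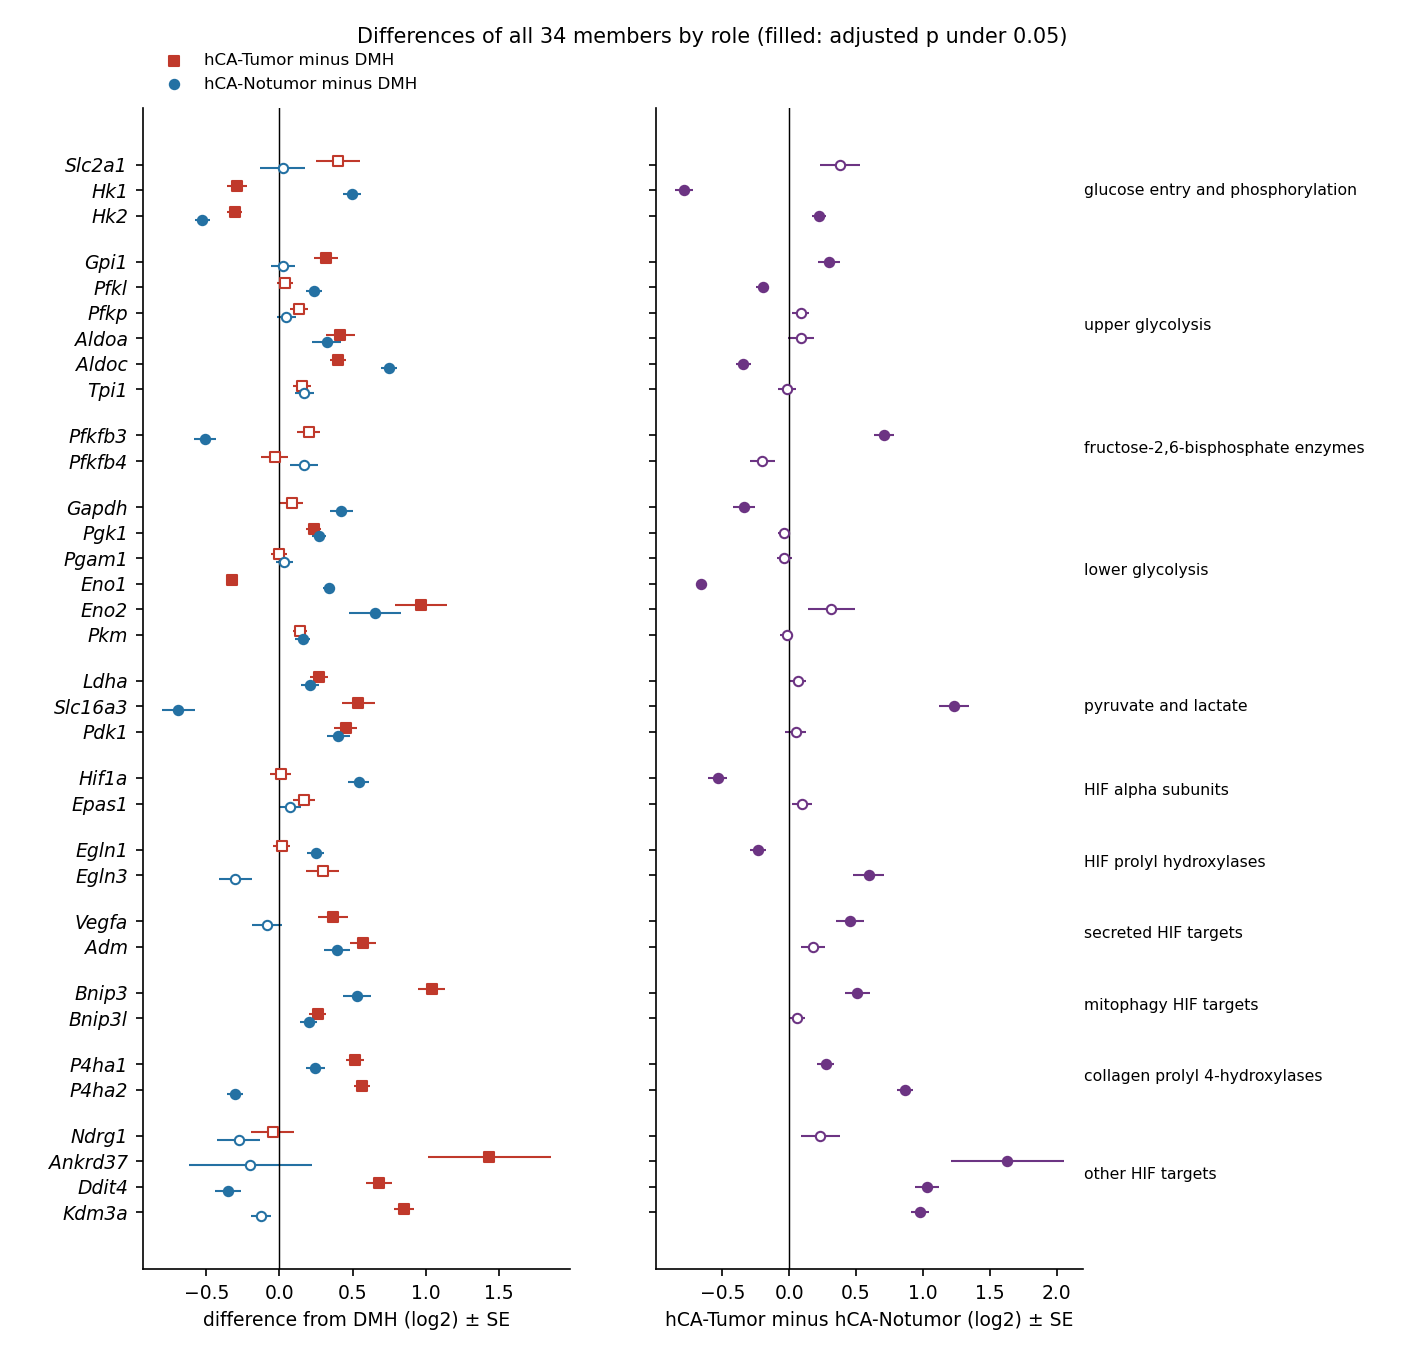
Fitted differences (log2, horizontal axes) with standard errors for all 34 members, grouped by role. The left panel sets hCA-Tumor (red squares) and hCA-Notumor (blue circles) against DMH, the right panel hCA-Tumor against hCA-Notumor (purple), and filled symbols have an adjusted p under 0.05. Hypoxia targets, at the bottom, lie mostly right of 0 in the right panel, with Ankrd37 at 1.63 and Slc16a3 at 1.23, while Hk1, Eno1 and Hif1a lie left of it.

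Before the values of the HIF targets, their promoters are shown, because the letters that HIF binds can be searched there. In the 250 bases before the start of transcription (RefSeq, GRCm38.p6), ACGTG was found on either strand in 18 of the 31 members with an entry (58.1%), against 4998 of 27025 genes (18.5%). A gene with several annotated starts counts if any of its windows holds a match. Counted by window, the shares were 45.5% of 44 member windows and 16.6% of all 32851. The members were listed as glycolysis and hypoxia genes, so a larger share could follow from that choice and says nothing about these samples. A window of CACGTG holds the letters on both strands and gives 2 overlapping matches. Of the 8 members at least 0.5 higher with tumors 7 had a match, Kdm3a being without one in its 3 windows, and of the 3 lower members Hif1a alone had one. Most matches in 1 window were found in Ldha (5), not called between the high calcium groups, and Hif1a (3), which was lower. Pgk1, also not called there, had 2. Whether matches go with the differences was not tested. Matches were present in 9 of 20 glycolysis members and in 9 of 11 hypoxia members with an entry. A match is a string of letters, not a shown binding site. The windows of 5 genes are printed 5′ to 3′ on the gene's strand for members whose transcripts were higher with tumors, with every match in capitals. They are Slc16a3 (chr11:120948817-120949066, plus strand), Ankrd37 (chr8:45999851-46000100, minus strand), Bnip3 (chr7:138909507-138909756, minus strand), Ddit4 (chr10:59951771-59952020, minus strand) and P4ha2 (chr11:54100674-54100923, plus strand).
Slc16a3: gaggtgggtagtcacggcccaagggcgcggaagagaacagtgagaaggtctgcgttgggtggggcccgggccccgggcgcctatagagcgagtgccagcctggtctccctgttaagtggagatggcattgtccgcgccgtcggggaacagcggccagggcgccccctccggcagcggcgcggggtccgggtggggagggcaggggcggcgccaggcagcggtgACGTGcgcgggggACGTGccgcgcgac
Ankrd37: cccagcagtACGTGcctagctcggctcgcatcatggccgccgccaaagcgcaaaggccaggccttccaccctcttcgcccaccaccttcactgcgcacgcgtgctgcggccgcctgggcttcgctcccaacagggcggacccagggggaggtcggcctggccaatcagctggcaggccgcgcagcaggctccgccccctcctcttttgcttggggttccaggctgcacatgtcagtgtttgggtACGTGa
Bnip3: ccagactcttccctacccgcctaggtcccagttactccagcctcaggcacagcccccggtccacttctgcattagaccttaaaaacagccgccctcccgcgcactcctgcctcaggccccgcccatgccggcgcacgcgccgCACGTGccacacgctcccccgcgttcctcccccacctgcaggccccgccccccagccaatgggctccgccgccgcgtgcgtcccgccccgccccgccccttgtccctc
Ddit4: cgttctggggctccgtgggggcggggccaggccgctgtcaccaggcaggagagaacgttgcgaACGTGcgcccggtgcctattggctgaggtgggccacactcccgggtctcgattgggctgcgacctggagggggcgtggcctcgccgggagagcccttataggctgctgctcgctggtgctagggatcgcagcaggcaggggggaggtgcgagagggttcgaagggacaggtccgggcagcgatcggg
P4ha2: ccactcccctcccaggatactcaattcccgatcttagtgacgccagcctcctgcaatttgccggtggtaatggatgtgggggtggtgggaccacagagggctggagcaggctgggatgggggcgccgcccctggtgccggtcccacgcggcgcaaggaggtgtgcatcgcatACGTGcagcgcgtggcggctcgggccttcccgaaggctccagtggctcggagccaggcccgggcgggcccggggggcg
Counted from the start of transcription, the matches began at -27 and -14 in Slc16a3 and at -241 and -6 in Ankrd37. In Bnip3 an overlapping pair began at -108 and -107. Ddit4 had its match at -187 and P4ha2 at -78.

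Between the high calcium groups the Hif1a transcript was lower with tumors, while 8 of the 12 hypoxia members other than the HIF subunits were higher and 1 was lower. Other genes did not share that lean. Of 42 further hypoxia and HIF genes 10 were higher and 7 lower, and of the 20 glycolysis members 4 were higher and 5 lower. Hif1a, the alpha subunit that is present in most cells, had scaled log2 signals of 2.01, 2.01 and 1.96 in hCA-Tumor arrays, 2.67, 2.39 and 2.51 in hCA-Notumor arrays and 2.02, 1.98 and 1.95 in DMH arrays. All 3 hCA-Notumor arrays were above all others, and the hCA-Tumor and DMH arrays overlapped. The difference was -0.53 ± 0.07 (SE) for hCA-Tumor against hCA-Notumor (adjusted p = 0.000899), 0.54 ± 0.07 for hCA-Notumor against DMH (adjusted p = 0.00122), and 0.01 ± 0.07 for hCA-Tumor against DMH (adjusted p = 0.955). With the slide as a block the first of these was -0.46 with an adjusted p of 0.0572. Epas1, the alpha subunit of HIF typical of endothelium and of several epithelia, had 4.27, 4.08 and 4.33 in hCA-Tumor arrays, 4.10, 4.17 and 4.12 in hCA-Notumor arrays and 4.12, 4.0 and 4.04 in DMH arrays. The groups overlapped, and none of the 3 comparisons passed (adjusted p = 0.112 to 0.451).

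The 2 prolyl hydroxylases went opposite ways between the high calcium groups. Egln1, the main oxygen sensor, had 0.12, 0.07 and 0.18 in hCA-Tumor arrays, 0.34, 0.40 and 0.34 in hCA-Notumor arrays and 0.20, 0.08 and 0.05 in DMH arrays. The hCA-Notumor arrays stood above the rest, by 0.25 ± 0.06 over DMH (adjusted p = 0.013), and hCA-Tumor differed from them by -0.23 ± 0.06 (adjusted p = 0.012), but the slide block ended both calls (adjusted p = 0.101 and 0.27). Egln3, a prolyl hydroxylase that is itself a HIF target, had 1.67, 1.54 and 1.42 in hCA-Tumor arrays, 0.70, 1.1 and 1.05 in hCA-Notumor arrays and 1.20, 1.29 and 1.26 in DMH arrays. The 3 groups did not overlap, with hCA-Tumor highest and hCA-Notumor lowest. Egln3 rose by 0.60 ± 0.11 with tumors, 1.51-fold (adjusted p = 0.00438; 0.0932 with the slide as a block), and neither high calcium group passed against DMH (adjusted p = 0.0833 with tumors and 0.0788 without).

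Ankrd37, an ankyrin repeat protein gene used as a marker of HIF activity, showed the largest difference of all members. Its scaled log2 signal was 2.76, 2.65 and 2.53 in hCA-Tumor arrays, 0.01, 1.95 and 1.08 in hCA-Notumor arrays and 1.25, 1.23 and 1.15 in DMH arrays. The hCA-Tumor arrays were above all others, while the hCA-Notumor arrays spread over the DMH values with an SD of 0.97. It was 1.63 ± 0.42 higher with than without tumors, 3.10-fold (adjusted p = 0.0149), and 1.43 ± 0.42 higher than in DMH (adjusted p = 0.0317). The slide block ended both calls (adjusted p = 0.179 and 0.0812), and the call against DMH was also lost without any 1 of the 3 hCA-Tumor arrays, any 1 of the 3 DMH arrays or hCA-Notumor replicate 3 (differences of 1.38 to 1.49, adjusted p = 0.0517 to 0.0855). Against hCA-Notumor the difference was 1.13 without hCA-Notumor replicate 1 and 2.10 without replicate 2, and passed in both.

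Ddit4, an inhibitor of mTOR signalling induced by hypoxia and other stresses, had 4.73, 4.63 and 4.57 in hCA-Tumor arrays, 3.50, 3.81 and 3.54 in hCA-Notumor arrays and 3.97, 4.0 and 3.93 in DMH arrays. The groups did not overlap, with DMH between the high calcium groups. Ddit4 was 2.04-fold higher with than without tumors (1.03 ± 0.09, adjusted p = 0.000143). It rose by 0.68 ± 0.09 against DMH with tumors (adjusted p = 0.00121) and fell by 0.35 ± 0.09 without (adjusted p = 0.02; 0.106 with the slide as a block). The fall was also lost without hCA-Notumor replicate 1 or 3 or without DMH replicate 2 (-0.29 to -0.33, adjusted p = 0.0663 to 0.0693).

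Kdm3a, a histone demethylase and HIF target, had 1.54, 1.49 and 1.47 in hCA-Tumor arrays, 0.43, 0.61 and 0.53 in hCA-Notumor arrays and 0.56, 0.75 and 0.63 in DMH arrays. The hCA-Tumor arrays stood apart and the other groups overlapped. Its signal was 1.97-fold higher with than without tumors (0.98 ± 0.07, adjusted p = 6.19e-05) and 1.81-fold higher than in DMH (0.85 ± 0.07, adjusted p = 0.000222), and hCA-Notumor differed from DMH by -0.12 ± 0.07 (adjusted p = 0.195). Within slide 2, the 2 hCA-Tumor arrays were 0.82 above the 2 DMH arrays. Ndrg1, a differentiation and stress gene of the colonic epithelium that is induced by hypoxia, passed in none of the 3 comparisons. It averaged 3.97 ± 0.03 in hCA-Tumor arrays, 3.74 ± 0.31 in hCA-Notumor arrays and 4.01 ± 0.12 in DMH arrays (SD, n = 3 each). Without hCA-Notumor replicate 2, the highest of its group, Ndrg1 was lower in hCA-Notumor than in DMH mucosa by -0.44 (adjusted p = 0.021). In that fit Ndrg1 was 0.39 higher with than without tumors (adjusted p = 0.0214). Leaving out the highest array of the lower group enlarges both differences, so these values follow from the choice.

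The mitophagy receptors Bnip3 and Bnip3l, which mark mitochondria for removal, were higher in both high calcium groups than in DMH. Bnip3 had 1.74, 1.73 and 1.52 in hCA-Tumor arrays, 1.03, 1.33 and 1.09 in hCA-Notumor arrays and 0.66, 0.65 and 0.56 in DMH arrays. The 3 groups were ordered without overlap. Bnip3 rose by 1.04 ± 0.09 with tumors, 2.05-fold (adjusted p = 0.000336), and by 0.53 ± 0.09 without tumors (adjusted p = 0.00471), and the high calcium groups differed by 0.51 ± 0.09 (adjusted p = 0.00369). Within slides the differences from DMH were 1.13 with tumors and 0.49 without. Bnip3l rose by 0.26 ± 0.06 with tumors and 0.20 ± 0.06 without (adjusted p = 0.0109 and 0.0324). The second of these was lost without any 1 of the hCA-Notumor or DMH arrays or hCA-Tumor replicate 2 (0.18 to 0.21, adjusted p = 0.0526 to 0.095), and the other probe of Bnip3l gave -0.08 in both.

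P4ha1 and P4ha2 encode the catalytic subunits of collagen prolyl 4-hydroxylase, which stabilises collagen in the secretory pathway. P4ha2 had 0.32, 0.27 and 0.22 in hCA-Tumor arrays, -0.60, -0.52 and -0.68 in hCA-Notumor arrays and -0.35, -0.27 and -0.26 in DMH arrays. Again DMH lay between the high calcium groups without overlap. P4ha2 was 1.82-fold higher with than without tumors (0.87 ± 0.06, adjusted p = 4.96e-05), 0.56 ± 0.06 higher than DMH with tumors (adjusted p = 0.000488) and -0.30 ± 0.06 from DMH without (adjusted p = 0.00589; 0.0586 with the slide as a block). P4ha1 had 0.85, 0.84 and 0.80 in hCA-Tumor arrays, 0.50, 0.62 and 0.56 in hCA-Notumor arrays and 0.43, 0.25 and 0.26 in DMH arrays. These groups were ordered without overlap, and hCA-Tumor was 0.27 ± 0.06 above hCA-Notumor (adjusted p = 0.01; 0.47 with the slide as a block) and 0.52 ± 0.06 above DMH (adjusted p = 0.00093). P4ha1 was also 0.24 ± 0.06 above DMH without tumors (adjusted p = 0.0215), a call lost in 9 of 19 alternatives. Of 9 fibroblast markers 7 were higher with than without tumors and none lower, where 27% of all features were higher. Against DMH, 5 markers were higher and 1 lower with tumors, and none was higher and 4 were lower without. Col1a1, the chain of fibrillar collagen that P4ha proteins act on, was 1.49 higher and Col3a1 1.12 higher (adjusted p = 1.31e-05 and 9.49e-06). Mean scaled log2 signal of the fibroblast list was 3.17 to 3.24 in hCA-Tumor arrays, 2.58 to 2.69 in hCA-Notumor arrays and 2.79 to 2.94 in DMH arrays, all 9 markers were well above background on every array, and the part of fibroblasts in the P4ha differences was not tested.

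Of the secreted targets, adrenomedullin (Adm), a vasodilator peptide, had -0.04, -0.01 and 0.13 in hCA-Tumor arrays, -0.21, -0.10 and -0.17 in hCA-Notumor arrays and -0.38, -0.57 and -0.70 in DMH arrays. All arrays of both high calcium groups were above the DMH arrays. Adm rose by 0.57 ± 0.09 with tumors, 1.49-fold (adjusted p = 0.00243), and by 0.39 ± 0.09 without tumors (adjusted p = 0.0128; 0.0849 with the slide as a block). The high calcium groups differed by 0.18 ± 0.09 in Adm (adjusted p = 0.134), and by 0.38 with the slide as a block (adjusted p = 0.0375). Vegfa, the growth factor of blood vessels, averaged 1.83 ± 0.05 in hCA-Tumor arrays, 1.38 ± 0.17 in hCA-Notumor arrays and 1.46 ± 0.15 in DMH arrays (SD, n = 3 each) at its brightest probe. That probe was 0.45 ± 0.10 higher with than without tumors (adjusted p = 0.00928). The call of hCA-Tumor against DMH (0.37 ± 0.10, adjusted p = 0.0281) was lost without any 1 of the hCA-Tumor arrays or without DMH replicate 2 or 3 (0.29 to 0.39, adjusted p = 0.0577 to 0.0889). Its 4 probes did not agree, as described with the other genes that have several probes.

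Of the glycolysis members, Slc16a3 had the difference of greatest size between the high calcium groups. Slc16a3, the lactate transporter of glycolytic cells, had 3.70, 3.67 and 3.65 in hCA-Tumor arrays, 2.21, 2.58 and 2.53 in hCA-Notumor arrays and 3.30, 3.06 and 3.04 in DMH arrays. The 3 groups did not overlap and DMH lay between the others. It was 2.35-fold higher with than without tumors (1.23 ± 0.11, adjusted p = 0.000166), 1.45-fold higher than DMH with tumors (0.54 ± 0.11, adjusted p = 0.00807) and 1.61-fold lower without (-0.69 ± 0.11, adjusted p = 0.00293). Within slides the differences were 0.64 with tumors and -0.86 without. Ldha, the lactate dehydrogenase subunit that favours lactate, rose by 0.27 ± 0.06 with tumors (adjusted p = 0.0128) and 0.21 ± 0.06 without (adjusted p = 0.0374; 0.241 with the slide as a block) at its brightest probe. Pdk1, the kinase that shuts pyruvate dehydrogenase, was 0.45 ± 0.08 and 0.40 ± 0.08 higher in hCA-Tumor and hCA-Notumor mucosa than in DMH (adjusted p = 0.00402 and 0.00707, the second 0.0533 with the slide as a block). It differed by 0.05 ± 0.08 between the high calcium groups (adjusted p = 0.646).

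The hexokinases, which trap glucose as its phosphate, were both lower in hCA-Tumor than in DMH mucosa, and in hCA-Notumor mucosa Hk1 was higher and Hk2 lower than in DMH. Hk1, the isoform of most tissues, had 0.22 and 0.41 in hCA-Tumor arrays, 1.12, 1.08 and 1.1 in hCA-Notumor arrays and 0.65, 0.60 and 0.56 in DMH arrays. Its spot on hCA-Tumor replicate 1 was left out as an outlier, so that group has 2 arrays, and fits without replicate 2 or 3 rest on 1. The groups did not overlap, with hCA-Tumor lowest. Hk1 was 1.72-fold lower with than without tumors (-0.78 ± 0.07, adjusted p = 0.000282), 0.50 ± 0.06 above DMH without tumors (adjusted p = 0.00156) and -0.29 ± 0.07 from DMH with tumors (adjusted p = 0.0185). Without hCA-Tumor replicate 2 the last was -0.20, from 1 hCA-Tumor array assumed to vary like the other groups. At the second probe, measured on all 9 arrays, this difference from DMH was -0.14 (adjusted p = 0.232).

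Hk2, the inducible isoform, had 3.06, 3.06 and 3.01 in hCA-Tumor arrays, 2.75, 2.85 and 2.86 in hCA-Notumor arrays and 3.29, 3.37 and 3.38 in DMH arrays. Every array of the high calcium groups was below every DMH array. Hk2 was 1.44-fold lower without tumors (-0.53 ± 0.05, adjusted p = 0.000278) and 1.24-fold lower with tumors (-0.31 ± 0.05, adjusted p = 0.0031) than in DMH. Its difference between the high calcium groups, 0.22 ± 0.05 (adjusted p = 0.0088), was 0.16 with the slide as a block (adjusted p = 0.201). The glucose transporter Slc2a1 passed in none of the 3 comparisons, at 4.85 ± 0.20 in hCA-Tumor arrays, 4.48 ± 0.26 in hCA-Notumor arrays and 4.45 ± 0.13 in DMH arrays (SD, n = 3 each). Without hCA-Notumor replicate 2, the highest of its group, Slc2a1 was 0.50 higher with than without tumors (adjusted p = 0.0348). Leaving out the highest array of the lower group enlarges the difference, so that value follows from the choice.

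In the upper part of the pathway, Aldoc, an aldolase isoform known mainly from brain, was the member with the largest rise without tumors. It had 2.34, 2.32 and 2.36 in hCA-Tumor arrays, 2.70, 2.67 and 2.68 in hCA-Notumor arrays and 2.04, 1.91 and 1.85 in DMH arrays. Here the hCA-Notumor arrays were highest and DMH lowest. Aldoc was 1.68-fold above DMH without tumors (0.75 ± 0.06, adjusted p = 9.63e-05) and 1.32-fold above it with tumors (0.40 ± 0.06, adjusted p = 0.00142). The high calcium groups differed by -0.34 ± 0.06 (adjusted p = 0.00191; 0.0892 with the slide as a block).

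Aldoa, the common aldolase, was 0.41 ± 0.10 and 0.32 ± 0.10 above DMH with and without tumors (adjusted p = 0.0144 and 0.0386). The value without tumors was lost in 7 of the fits that left out 1 array (0.25 to 0.36, adjusted p = 0.055 to 0.12) and was 0.11 with the slide as a block. Aldoa differed by 0.09 ± 0.10 between the high calcium groups (adjusted p = 0.489), and by 0.37 with the slide as a block (adjusted p = 0.0422). Gpi1, phosphoglucose isomerase, was 0.30 ± 0.08 higher with than without tumors (adjusted p = 0.0193), which did not hold without hCA-Notumor replicate 1 (0.24) or hCA-Tumor replicate 2 (0.26) and was 0.49 with the slide as a block (adjusted p = 0.0424). Pfkl, the liver type of phosphofructokinase, was 0.24 ± 0.05 above DMH without tumors (adjusted p = 0.0111; 0.113 with the slide as a block), and differed by -0.20 ± 0.05 between the high calcium groups (adjusted p = 0.016). That difference was -0.11 with the slide as a block (adjusted p = 0.378), and did not pass without hCA-Notumor replicate 2 or hCA-Tumor replicate 2 (-0.17 and -0.18, adjusted p = 0.0524 and 0.0599). Pfkp and Tpi1 passed in none of the 3 comparisons.

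The bifunctional enzymes that set fructose 2,6-bisphosphate, the activator of phosphofructokinase, are Pfkfb3 and Pfkfb4. Pfkfb3, in which synthesis of the activator dominates, had 0.54, 0.51 and 0.42 in hCA-Tumor arrays, -0.23, -0.07 and -0.35 in hCA-Notumor arrays and 0.29, 0.28 and 0.31 in DMH arrays. The groups did not overlap, in the same order as for Slc16a3, Ddit4 and P4ha2. Pfkfb3 was 1.63-fold higher with than without tumors (0.71 ± 0.08, adjusted p = 0.00033) and 1.42-fold below DMH without tumors (-0.51 ± 0.08, adjusted p = 0.00201), while hCA-Tumor differed from DMH by 0.20 ± 0.08 (adjusted p = 0.0777). Pfkfb4 passed in none of the 3 comparisons, and its difference between the high calcium groups was -0.20 ± 0.09 (adjusted p = 0.121).

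Enolases, of the lower part of the pathway, diverged. Eno1, the common enolase, had 2.30, 2.28 and 2.26 in hCA-Tumor arrays, 2.97, 2.93 and 2.92 in hCA-Notumor arrays and 2.57, 2.63 and 2.60 in DMH arrays. The groups were separate, with DMH in the middle. Eno1 was 1.58-fold lower with than without tumors (-0.66 ± 0.04, adjusted p = 3.87e-05), -0.32 ± 0.04 from DMH with tumors (adjusted p = 0.00102) and 0.34 ± 0.04 above DMH without (adjusted p = 0.000773). Within slides these differences from DMH were -0.33 and 0.36.

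Eno2, the enolase of neurons and endocrine cells and a known HIF target, had -0.07, 0.11 and 0.19 in hCA-Tumor arrays, -0.35, 0.12 and -0.49 in hCA-Notumor arrays and -0.64, -0.98 and -1.05 in DMH arrays. All DMH arrays were below the high calcium arrays, which overlapped each other. Eno2 rose 1.95-fold with tumors (0.97 ± 0.18, adjusted p = 0.00486) and 1.57-fold without (0.65 ± 0.18, adjusted p = 0.0255). The second was 0.40 with the slide as a block (adjusted p = 0.254) and did not pass without hCA-Notumor replicate 1 or 2 or DMH replicate 2 or 3 (0.47 to 0.71, adjusted p = 0.0507 to 0.0872). Of 6 measured markers of enteric neurons and glia, 4 were higher and none lower in hCA-Tumor mucosa than in DMH, where 21% of all features were higher. In hCA-Notumor mucosa 1 marker was higher and none lower, where 18.4% of all features were higher. The markers' mean scaled log2 signal was -1.10 to -0.85 in hCA-Tumor arrays, -1.92 to -1.07 in hCA-Notumor arrays and -1.91 to -1.70 in DMH arrays, the last 2 ranges overlapping. Of that list of 10, 4 were not among the features tested, and the part of nerve cells in the Eno2 difference was not tested.

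Gapdh rose by 0.42 ± 0.08 without tumors (adjusted p = 0.00565) and was 0.09 ± 0.08 from DMH with tumors (adjusted p = 0.455). Pgk1 rose by 0.23 ± 0.05 with tumors and 0.27 ± 0.05 without (adjusted p = 0.00798 and 0.00447). Pkm, pyruvate kinase of most tissues, was called only without tumors, at 0.16 ± 0.05 (adjusted p = 0.0427), was lost without any 1 of the hCA-Notumor or DMH arrays or hCA-Tumor replicate 2 (0.13 to 0.17), and had the opposite sign, -0.03, in the deposited value table. Pgam1 passed in none of the 3 comparisons.

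Where a gene had several kept probes, 13 of the 34 members, the probes did not always agree. For hCA-Tumor against hCA-Notumor, the 4 probes of Vegfa gave 0.45 and 0.28 for the brighter pair and -0.38 and -0.60 for the dimmer pair, all past the threshold (adjusted p = 0.00844 to 0.0144). The second probe of Ldha gave -0.62 ± 0.07 (adjusted p = 0.000352) against 0.06 ± 0.06 for the first. The second probe of Gapdh gave 0.13 ± 0.07 (adjusted p = 0.168) where the first gave -0.34 ± 0.08, and that of Pfkp 0.81 ± 0.10 (adjusted p = 0.000449) where the first gave 0.09 ± 0.06. The 4 probes of Hk1 all gave lower values with tumors, from -0.31 to -1.87, and both probes of Kdm3a gave higher ones, 0.98 and 1.32. Gapdh and Eno1 have near-identical copies in the mouse genome, whose transcripts such probes may not tell apart, and where the probes lie in their transcripts was not examined here.

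**Figure D3:**
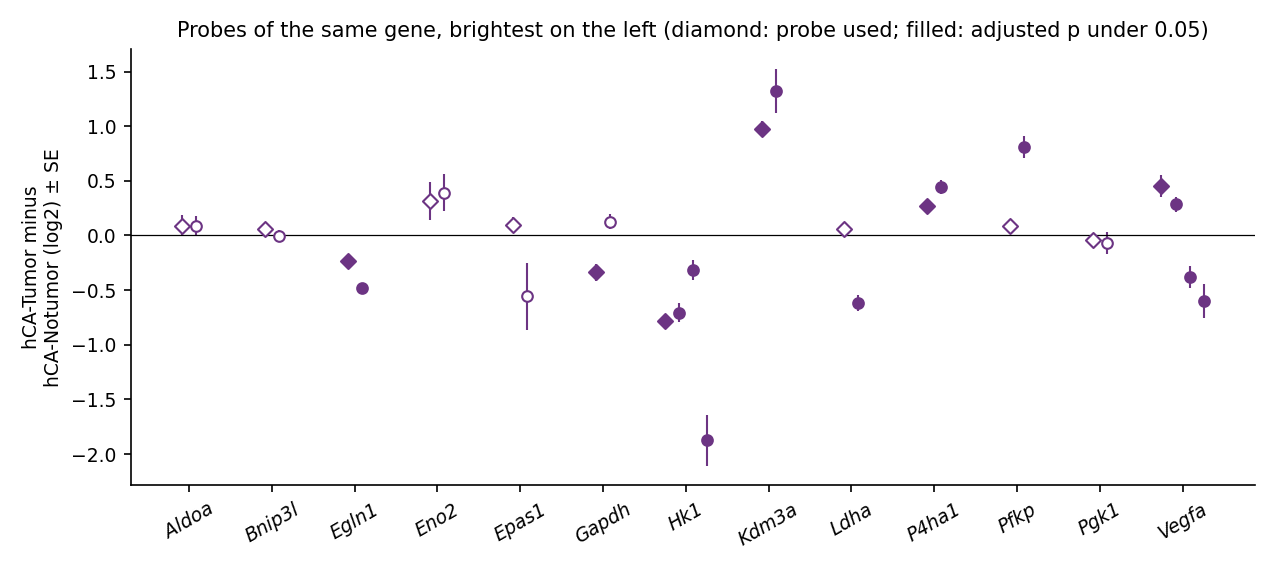
Difference between hCA-Tumor and hCA-Notumor (log2, vertical axis, bars are standard errors) for every kept probe of the 13 members with several kept probes, ordered by brightness from the left within a gene. Diamonds are the probes used for the members and filled symbols have an adjusted p under 0.05. The probes of Vegfa lie on both sides of 0, from 0.45 to -0.60, and those of Hk1 all below it.

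Among hCA-Notumor arrays, most hypoxia members were highest on 1 array and lowest on another. The median SD of the members in this group was 0.077, against 0.080 for all features. In hCA-Notumor replicate 2, 13 of the 14 hypoxia members had the highest signal of their group, all but Hif1a, where 30.04% of all features were highest on that array. In replicate 1 of the same group 11 of the 14 were lowest, and the share of all features lowest there was not computed. Of the 33 members measured on all 9 arrays, 23 were highest on replicate 2 and 23 lowest on replicate 1. Other groups had such arrays too. On DMH replicate 1, 23 of the 33 were highest, where 56.1% of all features were, and 20 were lowest on DMH replicate 3. On hCA-Tumor replicate 1, 17 were highest, where 33.5% of all features were, and 20 were lowest on hCA-Tumor replicate 3. The shares of all features lowest on these arrays were not computed either. The median deviation of the 14 genes from the group mean was -0.08, 0.08 and -0.02 in hCA-Notumor replicates 1, 2 and 3, and Ankrd37 spanned -1.01 to 0.94. In hCA-Tumor arrays these medians were 0.04, -0.01 and -0.03, and in DMH arrays 0.04, 0.00 and -0.04. Marker lists differed on replicate 2 as well. Mean scaled log2 signal of the 4 measured red blood cell markers was -0.97 there, against -1.83 and -1.90 on replicates 1 and 3, that of 9 adipocyte markers -0.91, against -2.44 and -1.30, and that of 6 enteric neuron and glia markers -1.07, against -1.79 and -1.92. It was 0.38, against 0.11 and -0.03, for 10 endothelial markers, 4.39, against 4.19 and 4.09, for 10 smooth muscle markers, and 0.36, against 0.50 and 0.51, for 15 proliferation genes. Their part in the spread was not tested. Without replicate 2, 9 of the 14 hypoxia members were higher and 2 lower with than without tumors, with a median of 0.47. These genes were mostly highest on that array, so a larger difference without it follows from the choice. Over all 34 members 15 were higher and 6 lower in that fit (median 0.12), against 5100 and 3785 of 21083 features. Without replicate 1, 11 members were higher and 7 lower (median 0.07), against 4668 and 3601 features.

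**Figure D4:**
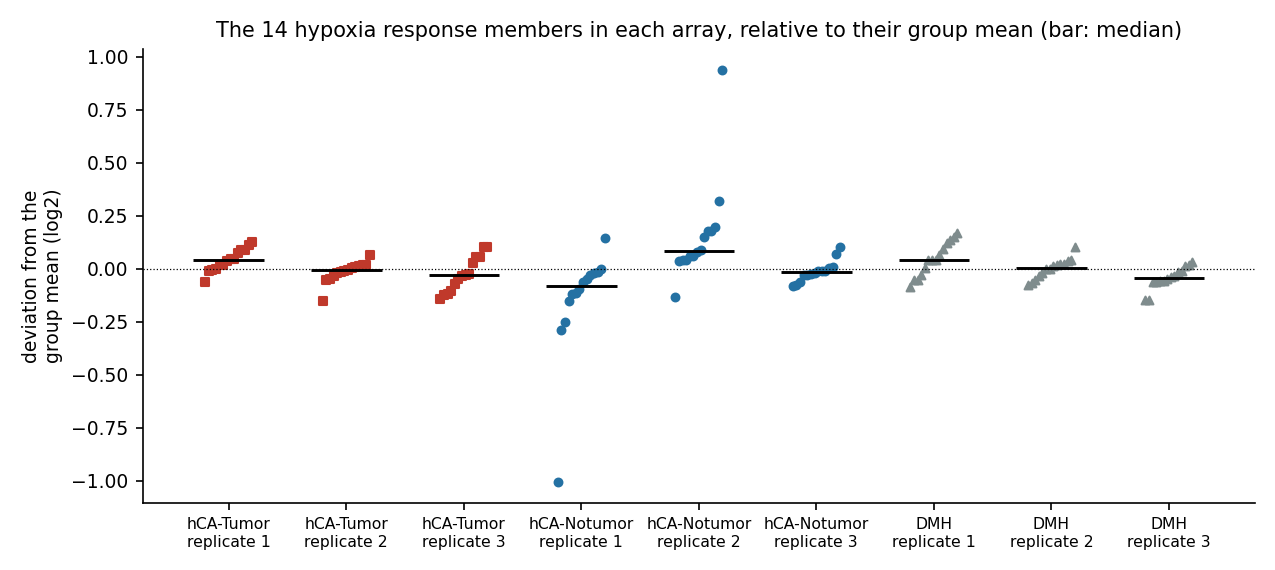
Deviation of each of the 14 hypoxia response members from its group mean (log2, vertical axis) on each array, with a bar at the median. The medians of hCA-Notumor replicates 1 and 2 lie at -0.08 and 0.08, and the farthest points of both, -1.01 and 0.94, are Ankrd37.

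The 42 measured genes of a further list of hypoxia and HIF genes did not lean to 1 side. Between hCA-Tumor and hCA-Notumor mucosa 10 rose and 7 fell with a median of -0.03, close to all features, and against DMH the counts were 10 and 8 with tumors and 9 and 9 without. Among the larger rises with tumors were those of Stc2, a secreted glycoprotein (1.58, adjusted p = 1.03e-05), Igfbp3, an insulin-like growth factor binding protein (1.55, adjusted p = 0.00837), and Hmox1, haem oxygenase (1.18, adjusted p = 0.000197). With the slide as a block Igfbp3 was 0.23 and no longer passed (adjusted p = 0.122), while Stc2 and Hmox1 passed. Of 19 further glycolysis genes (glucose transporters, tissue isoforms) 1 rose and 3 fell with than without tumors, among them the glucose transporter Slc2a2 (-0.71, adjusted p = 0.0138) and the pyruvate kinase of liver, Pklr (-0.55, adjusted p = 0.000387).

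Genes for the entry of pyruvate into mitochondria were mostly lower with than without tumors. Of 12 measured, 9 fell and 1 rose in hCA-Tumor against hCA-Notumor mucosa, with a median of -0.37 against 0.00 for all features. Pdp1, the phosphatase that switches pyruvate dehydrogenase on, fell by 0.93 on the log2 scale (adjusted p = 4.48e-05), Mpc1, a subunit of the mitochondrial pyruvate carrier, by 0.61 (adjusted p = 0.0018), and Dlat, a core subunit of pyruvate dehydrogenase, by 0.50 (adjusted p = 0.000272). Pdhx, its binding component, was higher (0.66, adjusted p = 0.0277) but stood at -0.03 with the slide as a block. Under that block 5 of 12 fell and none rose, the median being -0.22, and Pdp1, Mpc1 and Dlat were among the 5. Against DMH, 6 fell and 1 rose with tumors, and none fell and 5 rose without. The rises without tumors include Pdk2 (0.57, adjusted p = 0.00211), a kinase that acts against Pdp1, so the list mixes opposed actions.

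Among 14 genes of gluconeogenesis and glycogen, 2 rose and 4 fell with than without tumors. Slc37a4, the transporter of glucose 6-phosphate into the endoplasmic reticulum, was 2.01 higher (adjusted p = 0.00351) but 0.64 with the slide as a block (adjusted p = 0.00815), and Gys1, glycogen synthase of muscle and most tissues, fell by 0.64 (adjusted p = 0.000103). Of 6 genes of the pentose phosphate pathway 1 rose and 2 fell.

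Markers of other cells were compared between the groups too. Over all features, 27% were higher and 20.6% lower with than without tumors. Against DMH, 21% were higher and 15.9% lower with tumors, and 18.4% were higher and 17.3% lower without. Counts close to these shares say nothing particular about a cell type. Red blood cell markers were higher with than without tumors in 3 of 4 measured genes, with a median difference of 2.00. Their mean scaled log2 signal was -0.15 to 0.13 in hCA-Tumor arrays, -1.90 to -0.97 in hCA-Notumor arrays and -0.62 to -0.26 in DMH arrays, and 5 of the 9 listed markers were not among the features tested. Smooth muscle markers were higher than in DMH in 10 of 10 genes with tumors and 7 of 10 without, of which the slide block kept 1. Their mean scaled log2 signal was 4.49 to 4.82 in hCA-Tumor arrays, 4.09 to 4.39 in hCA-Notumor arrays and 3.17 to 3.90 in DMH arrays. Adipocyte markers were lower than in DMH in 7 of 9 genes in both high calcium groups, with medians of -3.21 with tumors and -3.29 without. Neutrophil markers, 5 of 10 measured and 3 of those well above background on every array, were lower than in DMH in 4 genes with tumors and in 5 without, and 3 were higher with than without tumors. Their mean scaled log2 signal was -3.72 to -3.67 in hCA-Tumor arrays, -4.41 to -4.17 in hCA-Notumor arrays and -2.25 to -2.12 in DMH arrays. Of 7 measured macrophage markers 5 were lower than in DMH with tumors and 2 without, and none was higher. Of 7 measured skeletal muscle markers 4 were higher than in DMH with tumors and none lower, and 2 were higher and 1 lower without. Endothelial markers showed 2 rises and 4 falls of 10 between the high calcium groups. Proliferation genes showed 6 rises and 2 falls of 15 with than without tumors and 10 falls of 15 in each group against DMH. None of these marker lists was entered in the fits, and the part of these cells in the differences of the glycolysis and hypoxia genes was not tested.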

How the data were processed

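Total RNA of 9 samples was hybridised to 1-colour Agilent arrays, 1 array per sample. The deposited scanner files hold each spot's intensity as processed signal, made by the authors with Agilent Feature Extraction 10.5.1.1 per the submitters' processing notes. A deposited value table holds log2 signals from which the authors had subtracted a constant per array, as set against the scanner values, and it was used as an alternative. Control spots and outlier spots (383 probes touched) were left out, and log2 processed signals were taken minus the array's 75th percentile (572.5 to 819.2 signal units). Of 41174 probes, 25097 were named with 1 symbol through RefSeq accessions (GRCm38.p6). Probes were kept if some group had them well above background on each of its 3 arrays (27192 probes), and the brightest per gene was used, leaving 21083 features. Between 61.1% and 73.7% of probes were well above background per array, and none was saturated.

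All 9 arrays were fitted with limma 3.58.1 (R 4.3.3, lmFit and eBayes), and p-values were Benjamini-Hochberg adjusted over all features within a comparison, with a threshold of 0.05. Each value ± SE comes from that fit. The groups were compared as hCA-Tumor minus hCA-Notumor, hCA-Tumor minus DMH, hCA-Notumor minus DMH, and the mean of both high calcium groups minus DMH. The replicate numbers were taken from the labels and do not pair the samples (correlations of deviations between same-numbered arrays of -0.57 to 0.22). Members called with a difference of at least 0.5 in some comparison, HIF alpha subunits and prolyl hydroxylases are given by array, the other members in less detail. From each further list at most 4 genes per comparison are named, those past the threshold with the largest differences. The members and lists were chosen with earlier results of these data known. Alternatives were other background correction, normalization and probe filters, the mean of a gene's probes, other probes, fewer arrays, and slide or replicate blocks.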

Additional observations from a re-analysis of the deposited data

Results flagged for a closer look

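For 5 members the high calcium groups were called in opposite directions against DMH, so that their difference as hCA-Tumor minus hCA-Notumor, given for each in parentheses, was large by the way they were picked and is a description. The lactate exporter Slc16a3 (1.23), the collagen hydroxylase P4ha2 (0.866) and the mTOR inhibitor Ddit4 (1.03) were above DMH with tumors and below it without. Hexokinase Hk1 (-0.784) and enolase Eno1 (-0.659) were below DMH with tumors and above it without. The opposite calls against DMH were less stable than the differences between the high calcium groups, which passed for all 5 with the slide as a block and in the deposited value table. With the slide as a block P4ha2 and Ddit4 were no longer called below DMH without tumors (adjusted p = 0.0586 and 0.106), and Hk1 was no longer called below DMH with tumors in 7 of 19 alternatives. In the deposited value table none of the 5 kept both of its calls against DMH. Since the high calcium groups never shared a slide, slide and tumor status can be separated only through the DMH arrays.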

How the results depend on the processing

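Over all members, comparisons and alternatives, 2313 values were counted as unchanged, 212 lost the call, 29 gained one, 19 reversed and 11 untested ones moved. A change of sign counted as reversed only where a call was involved, so the unchanged values include changes of sign without a call. Within-slide values, which have no test, counted as unchanged if they moved by less than the larger group SD and reversed no call. In the deposited value table the members called numbered 5 for hCA-Notumor minus DMH, 4 for hCA-Tumor minus DMH, 11 for hCA-Tumor minus hCA-Notumor and 3 for the mean of both minus DMH, and with the slide as a block 12 for hCA-Notumor minus DMH. The members' median for hCA-Notumor minus DMH was -0.0194 in the table, 0.0857 after quantile normalization and 0.0876 with the slide block; for hCA-Tumor minus DMH 0.14 in the table and 0.20 with the mean of probes; for hCA-Tumor minus hCA-Notumor 0.15 in the table and 0.22 with the slide block; and for the mean of both 0.0102 in the table. Leaving out 1 array at a time gave 15 to 22, 17 to 21, 17 to 21 and 10 to 18 members called in those 4 comparisons, in the order hCA-Notumor minus DMH, hCA-Tumor minus DMH, hCA-Tumor minus hCA-Notumor and the mean of both, with medians of 0.14 to 0.20, 0.22 to 0.29, 0.07 to 0.13 and 0.14 to 0.22. With the replicate number as a block, which shares only a number since the pairing check found none, 16, 17, 19 and 12 members were called in that order. Reversed values for hCA-Notumor minus DMH were Pfkp at -0.25 (mean of probes) and -0.55 (second probe), Vegfa at 0.37 and 0.69 (its 2 dimmest probes), Pkm at -0.0289 (table), Bnip3l at -0.0768 (second probe) and P4ha1 at -0.0042 (second probe). For hCA-Tumor minus DMH they were Ldha at -0.0702, Egln1 at -0.19 and Bnip3l at -0.0838 (second probes) and Vegfa at -0.0111 (the third probe). For hCA-Tumor minus hCA-Notumor they were Gapdh at 0.13 (second probe), Ldha at -0.28 (mean of probes) and -0.62 (second probe), and Vegfa at -0.0610 (mean of probes), -0.38 and -0.60 (its 2 dimmest probes). For the mean of both they were Bnip3l at -0.0803 (second probe) and Pkm at -0.0073 (table). Over all features, calls numbered 3339 (table) and 3880 (normexp background correction) against 7528 for hCA-Notumor minus DMH, 2403 and 4209 against 7796 for hCA-Tumor minus DMH, 4783, 6238 and, with the slide block, 6317 against 10027 for hCA-Tumor minus hCA-Notumor, and 2144, 3245 and, without DMH replicate 3, 4319 against 6665 for the mean of both. The cause of these changes was not tested. Every member's probe exceeded background clearly wherever it was measured.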
